A study of Mus musculus with 13 samples.

Results

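Carbonic anhydrases 1 and 2 and 8 regulators of red cell formation were followed across whole bone marrow of transplanted mice. The 10 genes were chosen by name (Gata1, Klf1, Gfi1b, Tal1, Epor, Car1, Car2, Hemgn, Trim10 and Trim58). They are 10 of 19505 gene symbols measured, and each has 1 row in the deposited table. LSK cells, a marrow fraction enriched in stem and progenitor cells, came from Cas9 knock-in mice, were transduced with guide RNAs and were given 24 h later to C57Bl/6J recipients irradiated with 7 Gy. Marrow was taken when signs of leukemia appeared or after 6 months, and the labels do not say which applies to each sample. There were 4 Affymetrix arrays of BRSST+sgEzh2 (the guide set that the submitters call BRSST, with a guide against Ezh2), 5 arrays of BRSST+sgLuc (the same set with the control guide sgLuc) and 4 arrays of sgLuc alone. All 3 groups share the transplant, the irradiation and the Cas9 donor cells, and marrow that is edited, unedited or left from the host cannot be told apart in whole tissue. The labels give no genotype at the guided sites, and no sex or age.

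Erythroid cells arise from progenitors that come under the control of GATA1, a zinc finger factor that binds GATA motifs together with the helix-loop-helix factor TAL1. GFI1B is a repressor that acts beside them, and KLF1 switches on globin and membrane genes. The erythropoietin receptor, encoded by Epor, keeps committed progenitors alive. Carbonic anhydrases convert carbon dioxide and water into bicarbonate and are abundant soluble enzymes of the red cell. Gata1, Tal1 and Gfi1b are also active in megakaryocytes, and Gata1 in mast cells, basophils and eosinophils, so their signal in marrow does not come from erythroid cells alone.

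Promoter sequence was at hand for 8 of the 10 genes (RefSeq, GRCm38.p6), and not for Car1 and Car2. In the 250 bases before the start, 6 of these 8 held the letters AGATAA or TGATAA on either strand, the core of the site that GATA1 binds. The same letters occur in 16.6% of 32851 promoter windows of that length. The stretches around them are shown because they set the genes that hold this motif beside each other. The match is in capitals, and TTATCT and TTATCA are the same letters read on the other strand.
Klf1, chr8:84901880-84901929, plus strand: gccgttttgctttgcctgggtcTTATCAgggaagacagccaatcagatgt
Epor, chr9:21963603-21963652, minus strand: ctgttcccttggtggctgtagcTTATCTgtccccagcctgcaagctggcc
Hemgn, chr4:46404184-46404218, minus strand: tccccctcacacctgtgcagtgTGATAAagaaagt
Gfi1b, chr2:28622075-28622124, minus strand: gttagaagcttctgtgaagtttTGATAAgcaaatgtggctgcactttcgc
Tal1, chr4:115056199-115056248, plus strand: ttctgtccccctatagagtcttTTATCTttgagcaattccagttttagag
Trim10, chr17:36869389-36869438, plus strand: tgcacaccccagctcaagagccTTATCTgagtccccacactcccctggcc
The match begins 13 bases before the start in Hemgn and 54 in Epor, the nearest of the 6, and 205 in Tal1, the farthest. Tal1 has 2 promoter windows, and the match lies in 1 of them. The windows of Gata1 and Trim58 did not hold these letters. A second motif, CCNCNCCC on either strand, the letters bound by KLF1 and related factors, was in 5 of the 8 genes, against 45.9% of all windows. A match is a run of letters and was not measured as a bound site.

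Signal is given on the log2 scale, with no read depth behind it. Array medians ran from 7.19 to 7.32. Ezh2, the target of the added guide, lay between 8.08 and 9.22 on the BRSST+sgEzh2 arrays, between 9.15 and 10.46 on those of BRSST+sgLuc and between 9.94 and 10.55 on those of sgLuc. BRSST+sgLuc arrays were the least alike, with correlations between arrays of 0.877 to 0.985 across tested genes. The submitters' sample numbers run on through both BRSST groups and skip ahead before the sgLuc arrays. The labels do not say what these numbers mark. Transcripts of 4 leukocyte genes, Ptprc, Coro1a, Laptm5 and Vav1, were above the median of every array, as marrow should show. No label states that the arrays of a group are different mice, and the p-values therefore cover the spread among these samples, which may be technical.

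Car1 and Car2 were higher in BRSST+sgLuc marrow than in sgLuc marrow, the comparison that asks what the BRSST guides change, while Gata1, Tal1 and Gfi1b differed by less than 0.1 log2 units. Car1 rose 5.96-fold and Car2 2.3-fold. Epor and Klf1 were each about 1.3 times as high (1.33-fold and 1.32-fold) without passing the test. No member passed when BRSST+sgEzh2 was set against either of the other groups. Of the 10 genes, 6 lay above their array's median on at least 4 arrays and were tested across 10601 genes with limma. In BRSST+sgLuc against sgLuc 2 of these 6 rose and 0 fell, where 22.5% of all tested genes passed, 10.8% higher and 11.7% lower. Of the 10 genes 8 had a higher mean, where 51.1% of tested genes did. The median difference of the 10 genes was 0.25, beside 0.0092 for all tested genes and 0.0354 for all 19505 genes without a filter. The 4 untested genes, Klf1, Tal1, Trim10 and Trim58, were above the array median on 1, 3, 1 and 0 of 13 arrays. The 51.1% and the 0.0092 cover tested genes only. Their differences are from a fit without that filter, and low signal limits how far a change in them could be seen.

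**Figure D1:**
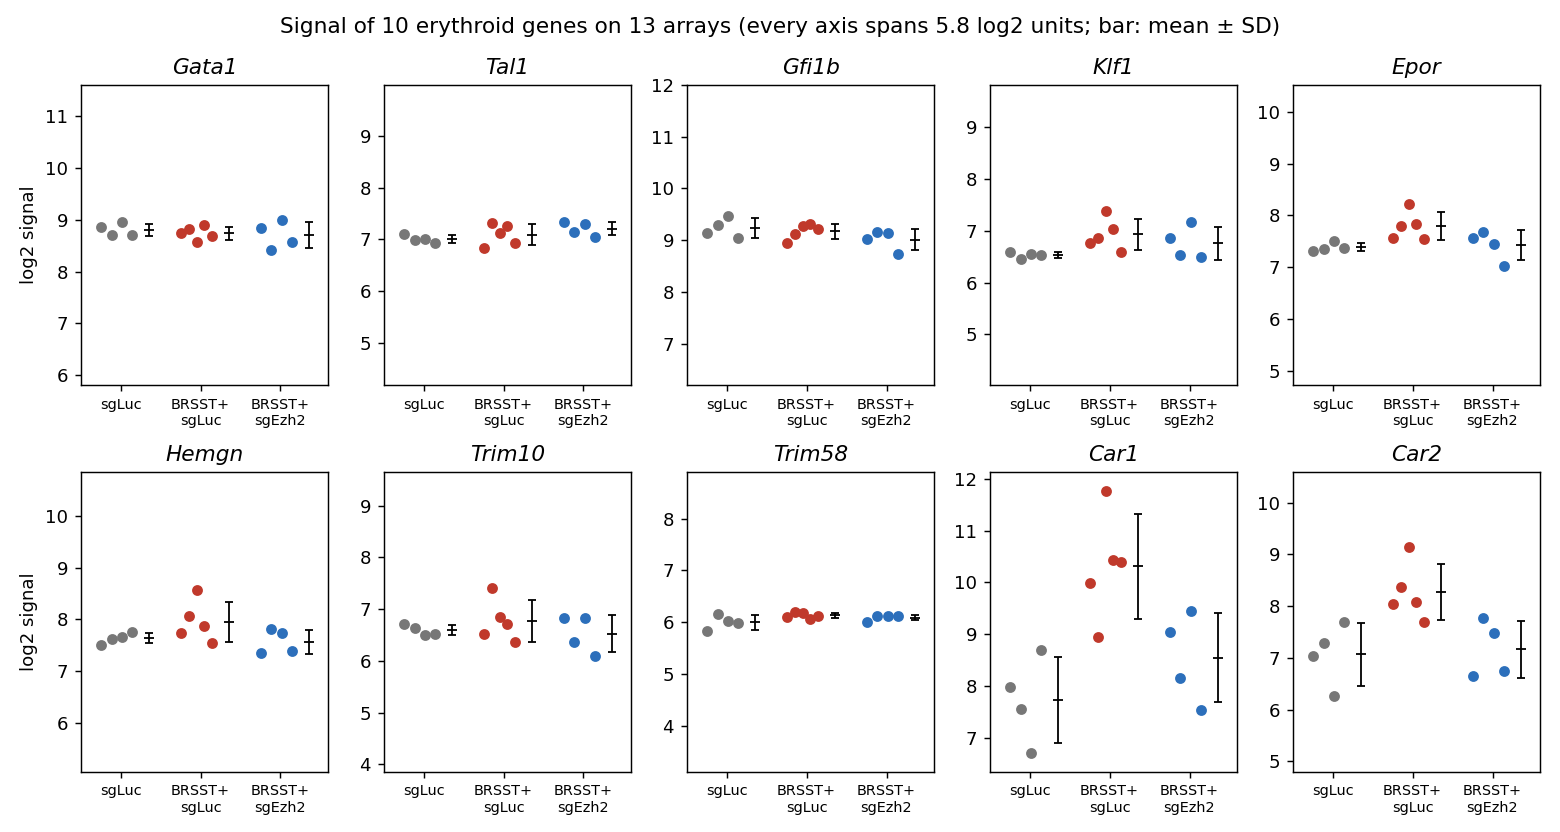
Log2 signal of each gene (vertical axis, each spanning 5.8 units) on the 4 sgLuc, 5 BRSST+sgLuc and 4 BRSST+sgEzh2 arrays (points), with the mean and SD of each group as a bar. Car1 and Car2 stand higher in BRSST+sgLuc, with Car1 at 8.95 to 11.78, while Gata1, Tal1 and Gfi1b keep nearly the same level in all 3 groups.

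Car1, the carbonic anhydrase typical of red cells, had the widest range of the 10 genes. Its signal on the sgLuc arrays was 7.98, 7.56, 6.71 and 8.69. On the BRSST+sgLuc arrays it was 9.99, 8.95, 11.78, 10.44 and 10.4. Every BRSST+sgLuc array lay above every sgLuc array, and replicate 3 was the highest. The BRSST+sgEzh2 arrays, at 9.04, 8.15, 9.44 and 7.54, overlapped both other groups. The rise in BRSST+sgLuc over sgLuc was 2.58 ± 0.53 (log2, SE, n = 5 and 4), with limma adjusted p = 0.00392. The two-sided exact permutation test gave p = 0.0159 over 126 regroupings, where the smallest it can give is 0.00794, and 0.143 after adjustment over the 30 tests of 10 genes in 3 comparisons. No gene passed that adjustment. With so few arrays, 1 gene at the smallest p could not pass it alone, so this outcome says little about any gene. Leaving out any 1 of the 9 arrays of these groups kept the call of Car1, with differences from 2.21 to 2.92.

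Car2, a second cytosolic carbonic anhydrase that is also found in other cell types, followed the same order with smaller steps. It read 7.03, 7.28, 6.26 and 7.7 with sgLuc and 8.05, 8.38, 9.14, 8.08 and 7.69 with BRSST+sgLuc. Of the 5 BRSST+sgLuc arrays 4 were above every sgLuc array, and replicate 5 fell just below sgLuc replicate 4. With BRSST+sgEzh2 it read 6.66, 7.77, 7.48 and 6.75, within the sgLuc range or close to it. The rise in BRSST+sgLuc was 1.20 ± 0.33 (limma adjusted p = 0.0183). The call ended without sgLuc replicate 1 (1.19, adjusted p = 0.0507) or replicate 3 (0.93, 0.0615), and in the fit with the Y-linked class as a block (1.11, 0.0593). That class is the high or low mean of Uty and Kdm5d, and all 4 sgLuc arrays were high. Within the high class the BRSST+sgLuc arrays, replicates 1 and 4, read 9.99 and 10.44 for Car1 and 8.05 and 8.08 for Car2, all above the sgLuc arrays. These are 2 arrays, and with no low sgLuc array the class and the group cannot be fully told apart.

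Epor, the receptor that carries the erythropoietin signal, separated BRSST+sgLuc from sgLuc by a small step. Its signal was 7.31, 7.36, 7.5 and 7.37 with sgLuc and 7.57, 7.79, 8.23, 7.84 and 7.55 with BRSST+sgLuc. The groups did not overlap, but the gap between them, 7.5 to 7.55, was small beside the range of BRSST+sgLuc. The BRSST+sgEzh2 arrays read 7.56, 7.67, 7.46 and 7.02, on both sides of the sgLuc values. The difference between BRSST+sgLuc and sgLuc was 0.41 ± 0.15 (95% interval 0.08 to 0.74, limma adjusted p = 0.0695), and it did not pass. It passed with quantile normalization (0.47, 0.0246), with equal array medians (0.45, 0.0393), with array quality weights (0.37, 0.016), without BRSST+sgLuc replicate 5 (0.47, 0.0416) and with the replicate number as a block (0.47, 0.0488), a fit in which replicate 5 carries no weight.

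Klf1, the activator of globin and red cell membrane genes, read 6.59, 6.45, 6.56 and 6.52 with sgLuc. With BRSST+sgLuc it read 6.76, 6.86, 7.39, 7.03 and 6.6. The lowest of these lay above the highest sgLuc value by a very small margin, and replicate 3 was the highest again. With BRSST+sgEzh2 it read 6.86, 6.52, 7.17 and 6.5. The difference between BRSST+sgLuc and sgLuc was 0.40 ± 0.16 (95% interval 0.05 to 0.75), with limma adjusted p = 0.137 in the fit without a filter. Epor, Car1 and Klf1 were the 3 of 10 genes whose groups did not overlap there, all higher in BRSST+sgLuc. Of all tested genes 18.9% did not overlap there, 9.09% in that direction. Klf1 was not among those tested genes.

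Gata1, the master factor of the lineage, stayed within a narrow band. Its signal ran from 8.70 to 8.95 with sgLuc, from 8.58 to 8.90 with BRSST+sgLuc and from 8.43 to 8.99 with BRSST+sgEzh2. The differences were -0.06 (95% interval -0.33 to 0.20) for BRSST+sgLuc against sgLuc, -0.10 (-0.38 to 0.18) for BRSST+sgEzh2 against sgLuc and -0.03 (-0.30 to 0.23) between the BRSST groups. The limma adjusted p lay between 0.728 and 0.931. A change in Gata1 as large as that of Car1 lies outside these intervals, and smaller ones inside them cannot be seen with this number of arrays.

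Gfi1b, the repressor that works beside GATA1, ran from 9.04 to 9.47 with sgLuc, from 8.95 to 9.32 with BRSST+sgLuc and from 8.73 to 9.16 with BRSST+sgEzh2. Its largest difference was between BRSST+sgEzh2 and sgLuc, at -0.22 ± 0.13 (95% interval -0.51 to 0.06, limma adjusted p = 0.338). Tal1, the partner of GATA1, ran from 6.92 to 7.11, from 6.83 to 7.31 and from 7.05 to 7.33 in the same order of groups. Its largest difference was also between BRSST+sgEzh2 and sgLuc, and of the other sign, at 0.20 ± 0.12 (-0.06 to 0.46, 0.461 without a filter). All 3 groups overlapped for both genes. Gata1, Tal1 and Gfi1b thus differed by at most 0.22 in any comparison, while Car1 differed by 0.81 to 2.58.

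Hemgn, a nuclear protein of blood progenitors and erythroid cells, read 7.51, 7.63, 7.65 and 7.75 with sgLuc and 7.74, 8.07, 8.56, 7.87 and 7.54 with BRSST+sgLuc. It read 7.35, 7.81, 7.73 and 7.39 with BRSST+sgEzh2, and all groups overlapped. The difference between BRSST+sgLuc and sgLuc was 0.32 ± 0.18 (limma adjusted p = 0.222). Trim10, a RING finger protein needed late in red cell maturation, lay between 6.51 and 6.71 with sgLuc and between 6.36 and 7.41 with BRSST+sgLuc, where replicate 2 was the highest. Trim58, a ubiquitin ligase of late erythroblasts, was below the median of all 13 arrays, at 5.82 to 6.20, and its group means differed by at most 0.13.

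**Figure D2:**
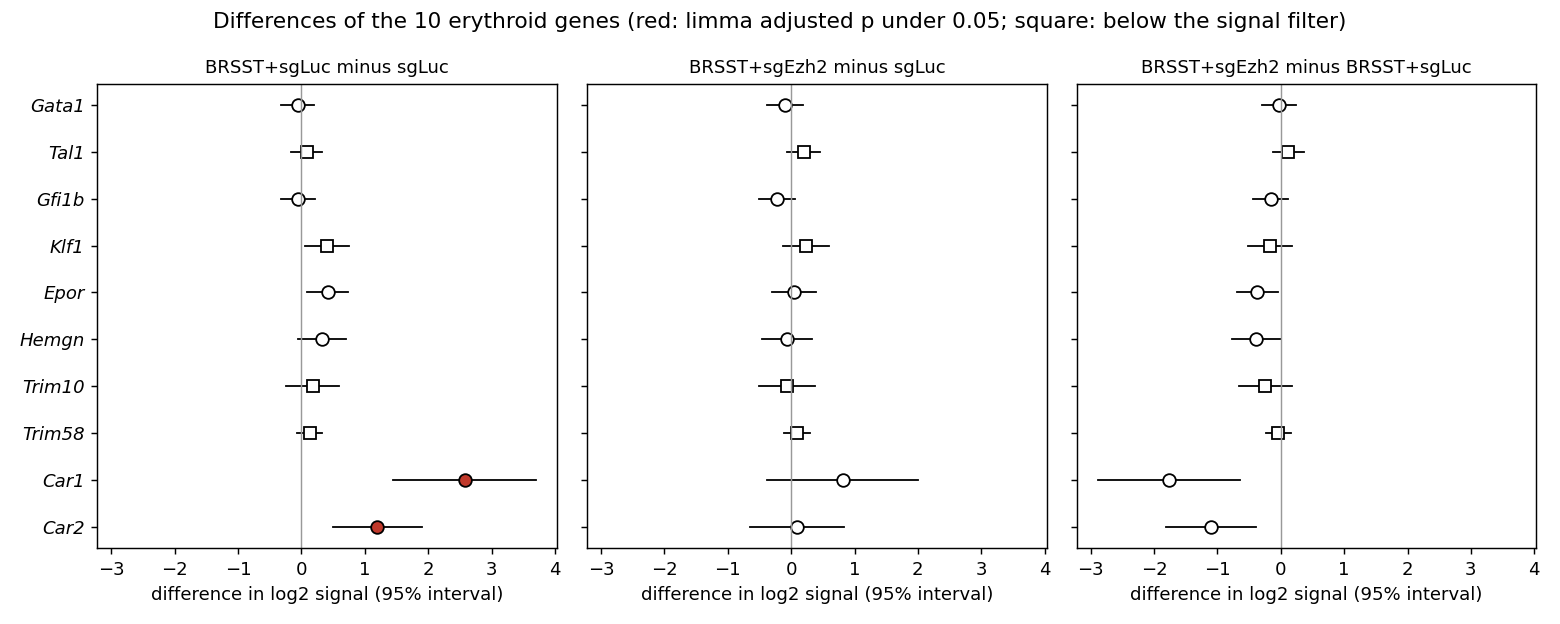
Difference in log2 signal (horizontal axis) of each gene (vertical axis) with its 95% interval from limma, for the 3 comparisons. Car1 at 2.58 and Car2 at 1.20 in BRSST+sgLuc against sgLuc are the filled points past the threshold, and squares mark the 4 genes below the signal filter.

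With the Ezh2 guide added to the BRSST set, 9 of the 10 genes had a lower mean than in BRSST+sgLuc, where 52.6% of tested genes had a higher one, and none passed the test. Car1 differed by -1.77 ± 0.53 (log2, SE, n = 4 and 5), which is 3.4-fold lower, and Car2 by -1.10 ± 0.33, which is 2.15-fold lower. Both had a limma adjusted p of 0.145. Hemgn was at -0.39 ± 0.18 and Epor at -0.37 ± 0.15, with adjusted p of 0.352 and 0.299. Tal1 was the 1 gene with a higher mean, at 0.11. Of the 6 tested genes 0 passed in either direction by limma, where 0.783% of all tested genes did, 0.67% higher and 0.113% lower. Before adjustment 4 of the 6 had limma p under 0.05 (Car1, Car2, Epor and Hemgn), where 1472 of all 10601 tested genes did. All 10 genes overlapped between the groups, where 3.53% of tested genes did not. The signs of all 10 differences were the same with quantile normalization and with equal array medians. The median of the 10 was -0.21, beside 0.01 for all tested genes and -0.0254 for all 19505 genes in the fit without a filter. The 52.6% is a share of tested genes, and it does not carry over to all genes, whose median lay below 0. Klf1, Tal1, Trim10 and Trim58 were not tested.

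Array weights decided whether the fall of both carbonic anhydrases passed, and for Car1 a single array did as well. Car1 passed without BRSST+sgLuc replicate 2 (-2.11, limma adjusted p = 0.0425), the BRSST+sgLuc array with its lowest value. With array quality weights both passed, Car1 at -1.51 (0.0369) and Car2 at -1.07 (0.0312). The adjusted p of Car1 otherwise reached 0.366 when 1 array was left out. Car2 did not pass with any 1 array left out (limma adjusted p from 0.104 to 0.347). Exact permutation p was 0.0397 for Car1 and 0.0238 for Car2 over 126 regroupings, and 0.198 and 0.143 after adjustment over the 30 tests.

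BRSST+sgEzh2 marrow, set against sgLuc marrow, gave no difference past the threshold in any of the 6 tested genes, where 9.37% of all tested genes passed, 5.51% higher and 3.86% lower. Before adjustment 0 of the 6 had limma p under 0.05, where 2575 of all 10601 tested genes did. Car1 was at 0.81 ± 0.55 (95% interval -0.38 to 2.00, limma adjusted p = 0.416) and Car2 at 0.10 ± 0.35 (-0.65 to 0.84, 0.907). Epor was at 0.04 ± 0.16 and Hemgn at -0.07 ± 0.19. All 10 genes overlapped between these groups, where 23.3% of tested genes did not. The interval of Car1 reaches a rise of 2.00, so a level equal to the control is not shown. The 3 comparisons share arrays, and the BRSST+sgLuc group enters both comparisons in which the carbonic anhydrases stand apart.

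**Figure D3:**
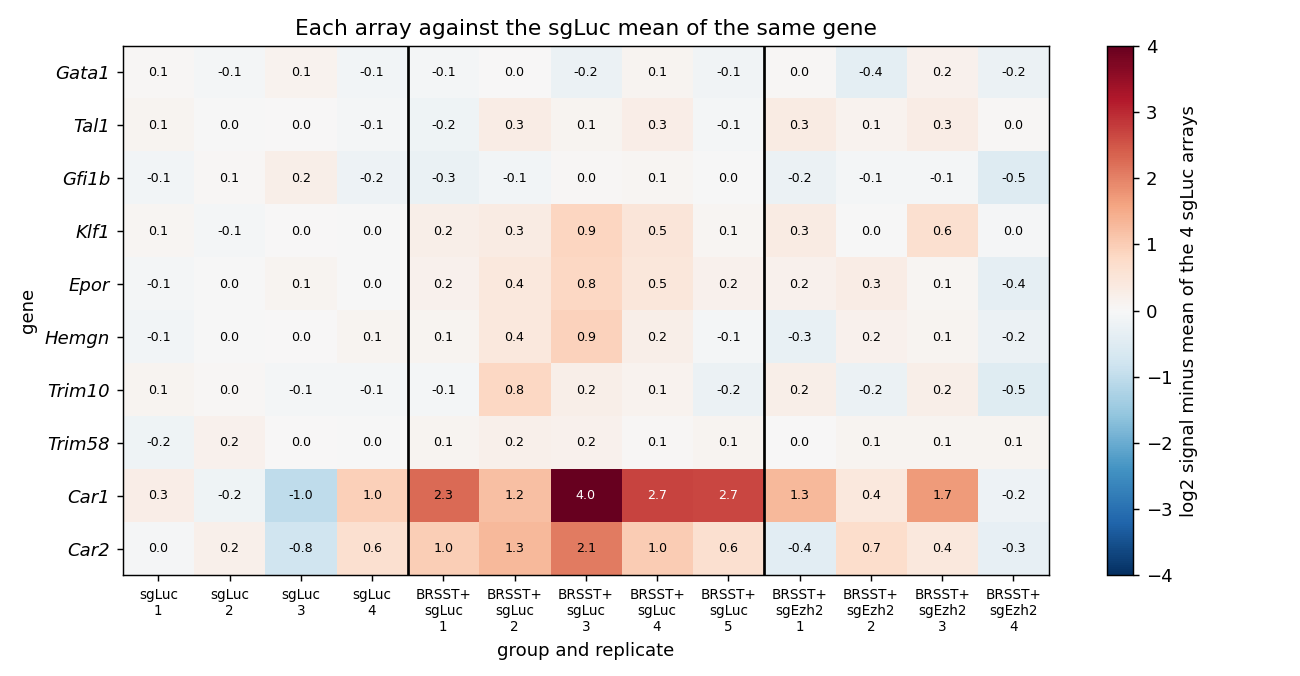
Each cell is the log2 signal of a gene (row) on 1 array (column) minus the mean of the 4 sgLuc arrays for that gene. BRSST+sgLuc replicate 3 carries the highest values for Car1 (4.0) and Car2 (2.1), and the rows of Gata1, Tal1 and Gfi1b stay between -0.5 and 0.3.

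Arrays of a group differed in how far the genes went together. Within BRSST+sgLuc, replicate 3 was the highest for 5 of the 10 genes (Klf1, Epor, Car1, Car2 and Hemgn), and it was also the lowest for Gata1. Replicate 5 was the lowest of that group for 5 genes. Within BRSST+sgEzh2, replicate 4 was the lowest for 6 genes, among them Car1, Epor and Gfi1b. Without BRSST+sgLuc replicate 3 the rise of Car1 over sgLuc was 2.21 and still passed (limma adjusted p = 0.00568), and that of Car2 was 0.98 (0.0336).

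Other erythroid genes were taken from 6 lists of textbook membership, whose counts of calls in BRSST+sgLuc against sgLuc are to be read beside the 22.5% of all tested genes that passed there (10.8% higher, 11.7% lower). Of 9 tested red cell membrane and surface genes 5 rose and 0 fell (median 0.44), but the signal filter bears on that count. Rhag and Add2 lay above the array median on 5 and 4 BRSST+sgLuc arrays and on 0 arrays of either other group, so they entered the test through the group where they were high. Aqp1 also entered through that group, with 4 BRSST+sgLuc arrays and 1 of each other group. So did Rhd, which did not pass the test, with 3 BRSST+sgLuc arrays and 1 of each other group. In the fit without a filter, 5 of all 15 measured membrane genes rose (Gypc, Ank1, Rhag, Add2 and Dmtn) and 0 fell, where 5.43% of all genes rose and 11.9% passed in either direction. In that fit 14 of the 15 had a higher mean, with a median of 0.46, beside 0.0354 for all genes. Rhag, a subunit of the Rh channel complex, differed by 2.55 ± 0.38. Its signal was 4.69 to 6.49 with sgLuc, around the lower quartile of the arrays, and 7.39 to 9.23 with BRSST+sgLuc, so the size of its difference is set against low signal. Ank1, the ankyrin that ties the membrane to the skeleton, rose by 0.91 ± 0.27, Aqp1, a water channel, by 0.65 ± 0.22, and Add2, an adducin, by 0.46 ± 0.12. Limma adjusted p was 0.000604 for Rhag, 0.0268 for Ank1, 0.0474 for Aqp1 and 0.0154 for Add2. The calls of Ank1, Aqp1 and Add2 each ended without 1 of 4, 6 and 2 arrays, each time including sgLuc replicates 1 and 2. Adjusted p then reached 0.0859, 0.137 and 0.0549.

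Of 10 tested genes of haem synthesis and iron uptake, none of them a globin, 2 rose and 1 fell in BRSST+sgLuc (median 0.28). Fech, ferrochelatase, which sets iron into haem, rose by 0.81 ± 0.12 (limma adjusted p = 0.000473) and was also higher in BRSST+sgEzh2 than in sgLuc, by 0.71 ± 0.12 (0.00274). Slc25a38, a mitochondrial carrier of the haem pathway, rose by 0.51 ± 0.16 (0.039), a call that ended without 1 of 6 arrays (adjusted p of up to 0.0997). Ppox, the enzyme just before ferrochelatase, went the other way, by -0.52 ± 0.14 (0.016, and 0.0578 without sgLuc replicate 2), and was lower in BRSST+sgEzh2 as well, by -0.72 ± 0.15 (0.00695). The 1 globin gene measured, Hbb-bh1, was below the median of every array, and adult alpha and beta globin genes were not analysed here. Without a filter Fech and Ppox passed among all 12 measured genes of this list, and Slc25a38 did not.

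Of 7 tested genes of erythropoietin receptor signalling 1 rose and 0 fell (median 0.17). It was Pim1, a survival kinase induced by STAT5, at 0.64 ± 0.19 (limma adjusted p = 0.0269, and up to 0.0854 without 1 of 5 arrays). In the fit without a filter, where 11.9% of all genes passed, Pim1 and Podxl rose and Socs2 fell among all 11 measured genes of this list. Mean signal of Socs2 was 7.04 with sgLuc and 6.19 with BRSST+sgLuc. Socs2 lay above the array median on 1 sgLuc array only, and Podxl on 0 arrays of any group. Of 15 tested partners and opposing factors of GATA1, 3 fell and 0 rose (median -0.23). Gata2, the GATA factor of earlier progenitors and mast cells, fell by 1.00 ± 0.26 (0.0143). Bcl11a, a silencer of globin genes, fell by 0.51 ± 0.13 (0.015, and 0.0532 without sgLuc replicate 1) and Runx1 fell by 0.47 ± 0.16 (0.0474, and up to 0.119 without 1 of 7 arrays). Of 9 tested genes of late erythroid autophagy and ubiquitin turnover, 1 rose, Rnf123, a ubiquitin ligase subunit, by 0.38 ± 0.12 (0.0391, and up to 0.103 without any 1 of 8 of the 9 arrays). Those 9 had a median of -0.03, which turned to 0.01 with equal array medians. These counts, 3 of 15, 1 of 7, 1 of 9 and 3 of 10 for haem synthesis, lie on both sides of the 22.5% over all tested genes and are given as descriptions. In the fit without a filter Runx1, Rnf123 and Aqp1 did not pass.

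In BRSST+sgEzh2 against BRSST+sgLuc the median was -0.33 for membrane genes and -0.18 for haem synthesis and iron uptake genes. Of these 0 of 9 and 0 of 10 passed, where 0.783% of all tested genes did. Rhag, Add2, Aqp1, Rhd and, in the haem list, Tspo2 entered the test through BRSST+sgLuc, which favours a lower value against that group. Without a filter the medians were -0.50 over all 15 membrane genes and -0.18 over all 12 haem genes, beside -0.0254 for all genes. None of these genes passed there. Of the other lists 1 gene passed, Ube2l6, a ubiquitin-like conjugating enzyme of red cell maturation that also serves ISG15, which fell by 1.56 ± 0.24 (limma adjusted p = 0.00692, and 0.0557 with only the 2 groups compared). In BRSST+sgEzh2 against sgLuc Fech rose and Ppox fell, as above, and Ube2l6 fell by 2.23 ± 0.25 (limma adjusted p = 7.66e-05). No gene of the membrane, receptor signalling, partner and carbonic anhydrase lists passed, where 9.37% of all tested genes did.

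**Figure D4:**
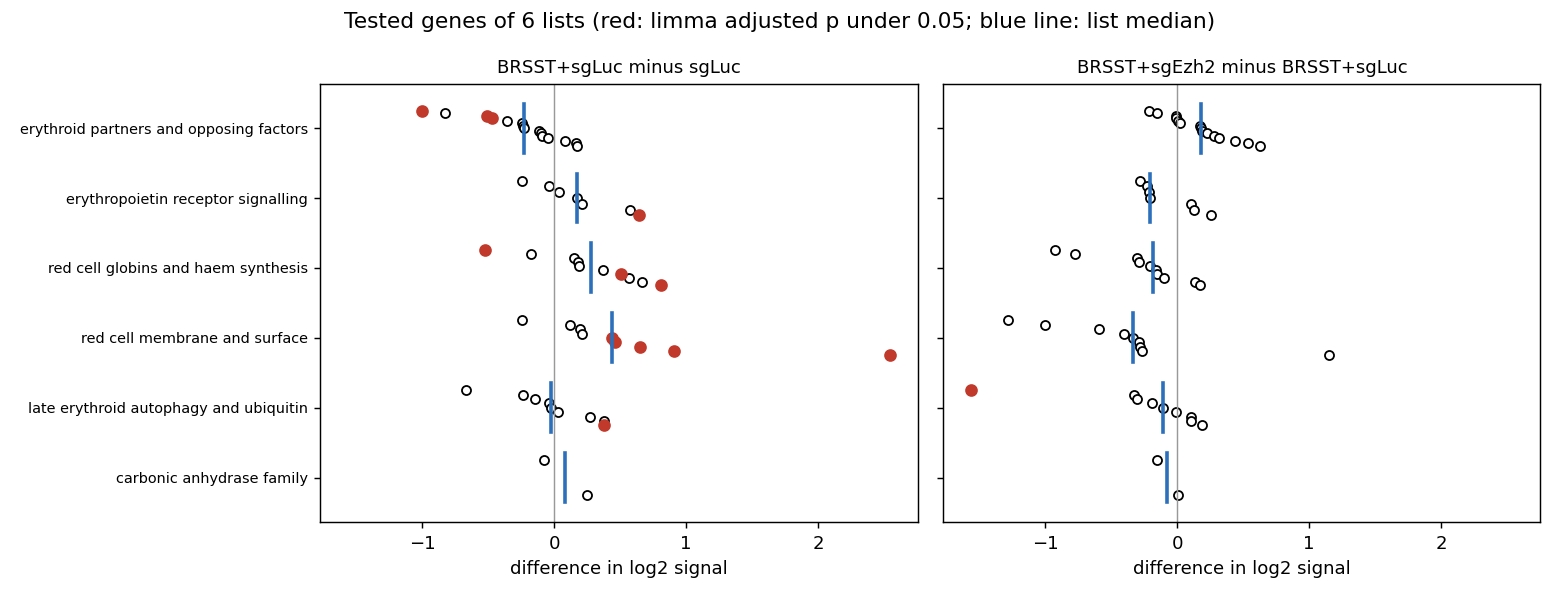
Difference in log2 signal (horizontal axis) of every tested gene of 6 erythroid lists (rows), with filled points past the limma threshold and a line at each list median. In BRSST+sgLuc against sgLuc 5 of 9 membrane genes are filled to the right of 0 (median 0.44). Of these, Rhag and Add2 passed the signal filter on BRSST+sgLuc arrays alone, and Aqp1 on 4 such arrays and 1 of each other group. In BRSST+sgEzh2 against BRSST+sgLuc 1 gene, Ube2l6, is filled, to the left. The row named for globins and haem synthesis holds no tested globin.

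The other carbonic anhydrases had little signal in this marrow. Of 14 further family members measured, 12 did not reach the signal filter and 9 were below the median of all 13 arrays. The 2 tested were Car10, at 0.25 ± 0.14 in BRSST+sgLuc against sgLuc (limma adjusted p = 0.244), and Car15, at -0.08 ± 0.17 (0.798). On chromosome 3 the protein-coding genes run Car13, Car1, Car3, Car2. Car3 was at 0.13 and Car13 at -0.36 in the same comparison, while the other pair of that row rose. Car3 was below the median of every array and Car13 above it on 3, so these differences are small steps at low signal.

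Markers of erythroid and some other cells moved between the same groups. The mean log2 signal of 5 measured erythroid markers of 13 listed (Alas2, Epb42, Slc4a1, Rhag and Ermap) was 6.81 to 7.14 with sgLuc, 7.60 to 8.41 with BRSST+sgLuc and 6.86 to 7.56 with BRSST+sgEzh2, so the BRSST+sgLuc arrays lay above both other groups as they did against sgLuc for Car1. All 5 markers also stand in the membrane or haem lists above, so this mean repeats them. Of the 3 tested, Rhag passed, while Alas2 was at 0.67 (limma adjusted p = 0.0844) and Slc4a1 at 0.12 (0.621). Without Rhag the mean of the other 4 was 7.21 to 7.41 with sgLuc and 7.48 to 8.29 with BRSST+sgLuc, still without overlap, and 6.97 to 7.64 with BRSST+sgEzh2, which overlapped both. In bulk tissue fewer cells of a type and less RNA per cell cannot be told apart. The mast cell and basophil list, cells that also use Gata1, had means of 8.53 to 8.83 with sgLuc, 7.07 to 7.29 with BRSST+sgLuc and 7.08 to 7.74 with BRSST+sgEzh2. In BRSST+sgLuc against sgLuc 5 of its 6 tested genes fell, Gata2 among them, and 0 rose. Of all tested genes 22.5% passed there, 10.8% higher and 11.7% lower. Fcer1a of this list lay above the array median on 4 sgLuc arrays and on 0 arrays of either other group. It entered the test through the group where it was high. The eosinophil list lay at 7.46 to 7.88 with sgLuc and at 6.73 to 7.59 with BRSST+sgLuc. The megakaryocyte list overlapped, at 7.32 to 7.66 with sgLuc and 7.30 to 7.83 with BRSST+sgLuc, with 1 gene higher and 1 lower of 7 tested. So did the neutrophil list, at 12.91 to 13.02 and 12.87 to 12.98, with 2 higher and 2 lower of 11 tested. The stem and progenitor list, at 7.55 to 7.78 and 7.41 to 7.96, overlapped too, and 0 of its 5 tested genes passed. Lymphoid markers shifted by more, and the counts of calls for every list here are to be read beside the same 22.5%. Of 7 tested B lineage genes 6 fell in BRSST+sgLuc against sgLuc (median -2.87), and the mean over the list was 9.51 to 10.76 with sgLuc, 7.06 to 8.92 with BRSST+sgLuc and 7.23 to 9.43 with BRSST+sgEzh2. Of 7 tested T and NK genes 5 fell (median -2.53), with means of 8.55 to 8.91, 6.59 to 8.07 and 6.37 to 8.83 in the same order of groups. Of 10 tested monocyte and macrophage genes 4 fell (median -0.80), with means of 9.78 to 9.98, 8.5 to 9.75 and 9.20 to 9.93. The signal filter bears on these counts too. Vpreb3, Cd3g and Cx3cr1 lay above the array median on 4 sgLuc arrays and on 0 BRSST+sgLuc arrays. C1qa did so on 4 sgLuc arrays and 2 BRSST+sgLuc arrays. The part of the cell types of these lists in the levels of the 10 genes was not tested.

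The pattern most like that of the 6 tested members over the 13 arrays, taken as Pearson r to their mean profile, was that of Ank1 (r = 0.933). Tspo2, a membrane protein of erythroid cells (0.885), Slc19a1, the folate carrier (0.869), Sphk1, a sphingosine kinase (0.86), and Pex14, a peroxisomal membrane protein (0.855), came next. Tspo2 reached the signal filter through 4 BRSST+sgLuc arrays and 1 BRSST+sgEzh2 array. After each group's mean was taken off, the first 5 were Aimp2 (0.925), C1qbp (0.906), Slamf1 (0.88), Them6 (0.874) and Nvl (0.871). The 2 sets of 5 have no gene in common. These are the highest of 10595 genes ranked, given as a description, and arrays of a group share their treatment.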

How the data were processed

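The values are log2 signals as deposited by the authors. The submitters' processing notes name R 3.5.01 and oligo, and the sources used here do not name the background correction, the normalization or the array's genome build. The log2 scale was taken from the range of the values (3.23 to 13.75). Per the labels' protocols, 2 ng of RNA was amplified with 10 PCR cycles. Rows were named from the platform's gene table, and 19572 of 22203 rows had 1 symbol. For a symbol with several rows the row of highest mean was used. Genes above their array's median on at least 4 arrays were tested in 1 limma 3.58.1 fit over 13 arrays in R 4.3.3 with no covariates. Adjustment was Benjamini-Hochberg over 10601 genes, with a threshold of 0.05. The exact permutation tests enumerated all regroupings. The script was tested on simulated data with known changes.

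Members and lists were chosen with earlier results of these data known. Named genes are all members, from each list up to 4 changed genes with the largest change in BRSST+sgLuc against sgLuc (or the 2 of smallest p) and any changed between the BRSST groups, and the 5 nearest patterns by each measure. Promoters are from RefSeq (GRCm38.p6). Figures used matplotlib 3.10.9.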

Additional observations from a re-analysis of the deposited data

Results flagged for a closer look

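Trim58 on BRSST+sgEzh2 replicate 1, at a log2 signal of 6.01, stood apart from the other 3 arrays of its group, of which the nearest was at 6.11. The gap was 0.938 of the group's range, above Dixon's 95% critical value for 4 arrays. This was 1 of 30 groups looked at (10 genes in 3 groups), and chance flags about 1 in 20. The range of that group is 0.115 in all, at a signal below the median of every array.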

How the results depend on the processing

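Car1 in BRSST+sgLuc against sgLuc passed limma's test in each of the 20 alternatives run, with adjusted p from 0.000159 to 0.0156. The number of members called there was 2, and 1 with the filter at the 75th percentile, with the Y-linked class as a block and at an adjusted p of 0.01. It was 3 with quantile normalization, equal array medians, array quality weights and the replicate block, and 1 to 3 when 1 array was left out. Between the BRSST groups it was 0, and 2 with array quality weights, with a range of 0 to 1. For BRSST+sgEzh2 against sgLuc it was 0 throughout. Over all genes, 83 passed between the BRSST groups, and 128 with no filter, 36 with the filter at the 75th percentile, 55 with equal array medians, 1039 with array quality weights, 17 with only the 2 groups compared, 28 with the replicate block, 170 with the Y-linked class as a block, 18 at an adjusted p of 0.01, 143 without BRSST+sgLuc replicates 2 and 5 (an alternative chosen after seeing the data) and 22 to 377 with 1 array left out. For BRSST+sgLuc against sgLuc 2389 passed, and 4879 with array quality weights, 1102 at 0.01 and 1481 to 2839 with 1 array left out. For BRSST+sgEzh2 against sgLuc 993 passed, and 2976 with array quality weights, 1822 with only the 2 groups, 398 at 0.01, 1739 without BRSST+sgLuc replicates 2 and 5 and 519 to 839 with 1 array left out. The causes of these shifts were not tested. Small differences that had not passed changed sign. Car2 in BRSST+sgEzh2 against sgLuc was at -0.11 with array quality weights and from -0.17 to 0.31 with 1 array left out, with Epor there from -0.0396 to 0.178 and Hemgn from -0.144 to 0.00933. Gata1 between the BRSST groups ran from -0.127 to 0.0607, and Gfi1b in BRSST+sgLuc against sgLuc from -0.126 to 0.0206. The labels do not say that replicate numbers pair samples. Deviations of same-numbered arrays correlated between -0.176 and 0.192. With so few arrays in a group these values cannot show whether the samples were paired. The replicate block changed the call of 1 member, Epor (0.47). Car2, Epor, Gata1 and Hemgn had no value with the filter at the 75th percentile, and Klf1, Tal1, Trim10 and Trim58 had values without a filter only.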
